A study of Homo sapiens with 18 samples.

Results

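The 10 genes described here are 3 genes of the CCN family of matricellular proteins (CCN1, CCN2 and CCN3, formerly CYR61, CTGF and NOV) and 7 further genes that are commonly read as transcriptional targets of YAP and TAZ: ANKRD1, AMOTL2, LATS2, AJUBA, AXL, CRIM1 and F3. They were picked by NCBI Gene ID from a table of read counts that lists 28395 genes, and all 10 passed the filter on low counts that left 15189 genes for testing. The cells were PC-3, an established human prostate cancer line, and the RNA was cytoplasmic. Sheared cells had been pushed in suspension through a 5 mL syringe and a 30G needle at 250 µL per second, and static cells had been held in suspension meanwhile. Both were then kept in wells coated with poly-HEMA, which prevents attachment, in serum-free DMEM with insulin, transferrin, selenium and bovine serum albumin, and were sampled at 3, 12 or 24 h. Each of the 6 groups had 3 libraries, 18 in all, and each of the 9 pools of cells, 3 per time, was split into a sheared and a static library that carry the same replicate number.

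YAP and TAZ are transcriptional coactivators that bind DNA through TEAD factors. In the Hippo cascade the kinase MST acts on the kinase LATS, and LATS phosphorylates YAP and TAZ and holds them in the cytoplasm. Cell spreading, actin tension and mechanical load are known to favour their nuclear entry. CCN1, CCN2 and ANKRD1 are their most widely used readouts, while AMOTL2 and LATS2 are targets that act back on YAP as inhibitors. CCN proteins are secreted, bind integrins and growth factors, and are known in prostate and other carcinomas for effects on adhesion and survival.

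RefSeq promoters of the GRCh38.p14 build, from 250 bases before to 50 bases after the start site, were at hand for 7 of the 10 genes, as 10 promoters, since AMOTL2, AJUBA and AXL each had a pair; CCN1, CCN3 and CRIM1 had no entry. The 4 sequences below are those of CCN2 and ANKRD1, the classical readouts, and of AMOTL2 and LATS2, added after their values were seen because they changed at 3 h. All are written 5′ to 3′ on the minus strand, with the TEAD motif GGAATG or its reverse complement CATTCC, and the AP-1 motif TGANTCA, in capitals. They lie at chr6:131951323-131951622 for CCN2, chr10:90921038-90921337 for ANKRD1, chr3:134374398-134374697 for AMOTL2 and chr13:21061537-21061836 for LATS2.
CCN2: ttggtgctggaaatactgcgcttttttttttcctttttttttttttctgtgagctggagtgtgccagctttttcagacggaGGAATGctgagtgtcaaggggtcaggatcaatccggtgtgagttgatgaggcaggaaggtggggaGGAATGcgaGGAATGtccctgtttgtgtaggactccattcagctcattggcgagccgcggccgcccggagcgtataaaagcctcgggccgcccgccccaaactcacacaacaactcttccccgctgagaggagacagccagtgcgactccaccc
ANKRD1: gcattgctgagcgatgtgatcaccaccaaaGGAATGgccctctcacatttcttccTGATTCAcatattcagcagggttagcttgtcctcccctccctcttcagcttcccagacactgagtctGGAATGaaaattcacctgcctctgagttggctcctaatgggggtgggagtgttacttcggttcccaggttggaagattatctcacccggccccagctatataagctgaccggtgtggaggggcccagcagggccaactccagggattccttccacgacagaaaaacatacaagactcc
AMOTL2: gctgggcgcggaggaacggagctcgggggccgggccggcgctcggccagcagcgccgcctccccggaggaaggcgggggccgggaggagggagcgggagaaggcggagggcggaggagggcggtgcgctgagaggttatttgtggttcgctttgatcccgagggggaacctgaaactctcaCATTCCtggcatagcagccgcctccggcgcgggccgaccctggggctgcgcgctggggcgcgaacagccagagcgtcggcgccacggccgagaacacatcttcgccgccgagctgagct
LATS2: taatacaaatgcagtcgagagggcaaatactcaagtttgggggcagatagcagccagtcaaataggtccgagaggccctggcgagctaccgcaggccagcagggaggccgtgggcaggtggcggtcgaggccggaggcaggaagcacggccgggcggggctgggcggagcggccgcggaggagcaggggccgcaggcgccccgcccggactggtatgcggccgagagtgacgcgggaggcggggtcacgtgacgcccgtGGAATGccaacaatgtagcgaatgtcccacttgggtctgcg

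Searched on both strands, the TEAD motif was in 6 of the 10 promoters, belonging to 6 of the 7 genes (AMOTL2, CCN2, ANKRD1, LATS2, AJUBA and AXL), against 14% of the 35116 promoters of the same length. The CCN2 promoter held 3 copies, which began 169, 104 and 95 bases before the start site. ANKRD1 held 2, which began 220 and 128 bases before it, and an AP-1 motif that began 195 bases before it. AMOTL2 held 1 that began 69 bases before the start, and LATS2 held 1 that began 9 bases after it. The promoter of F3 held no TEAD motif and 2 AP-1 motifs, which began 223 and 210 bases before the start, and AP-1 motifs were in 2 of the 10 promoters against 7.71% of all. The CArG box, a serum response factor motif of CC, 6 bases of A or T and GG, was in 0 of the 10 and in 1.29% of all. In AMOTL2, AJUBA and AXL only 1 promoter of the pair held the TEAD motif. The genes were listed as targets of YAP and TAZ, which bind DNA through TEAD, so this share is a description and not a test. A match is only a run of letters, and no binding was measured.

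Libraries held 16400487 to 25862360 counts. All 6 markers of PC-3 and epithelial cells (KRT8, KRT18, KRT19, EPCAM, CDH1, VIM) averaged at least 1 CPM (read counts scaled to library size, corrected by the trimmed mean of M-values). Of these CDH1 was lower in sheared cells at 12 h (log2 fold change -0.51, adjusted p = 0.00709) and 24 h (-0.48, adjusted p = 0.00577), and KRT8 was higher at 12 h (0.59, adjusted p = 0.0069). None of 5 haematopoietic markers averaged 1 CPM or more, and their sum was 0.225 to 1.42 CPM in sheared libraries and 0.433 to 1.26 CPM in static libraries. Of 7 fibroblast and endothelial markers only COL1A1 and PECAM1 did, with the sum at 43.3 to 113 CPM in sheared libraries and 24.4 to 143 CPM in static libraries. COL1A1 was higher in sheared cells at 3 h (log2 fold change 1.19, adjusted p = 0.000298) and lower at 24 h (-0.48, adjusted p = 0.0471), and PECAM1 was lower at 12 h (-0.67, adjusted p = 0.0069). MALAT1, a nuclear-retained RNA that can report carry-over of nuclear RNA, stood at 15.1, 14.4 and 15.1 CPM in sheared cells at 3 h, against 29.5, 25.8 and 23.9 CPM in static cells. At 24 h MALAT1 stood at 29.9, 7.15 and 68.4 CPM in sheared cells, against 24.7, 13.7 and 10.8 CPM in static cells, highest in sheared replicate 3. MALAT1 was not called at either time (adjusted p = 0.778 at 3 h and 0.478 at 24 h). Sheared 24 h replicate 3 also had the lowest scaling factor, 0.721, and the fewest genes detected, 17007. The part of these values in the results below was not tested, and in RNA from whole populations fewer cells of a kind and less RNA per cell cannot be told apart.

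Fitted values were higher in sheared cells for 9 of the 10 genes at each time. At 3 h CCN3, AMOTL2 and LATS2 were higher in sheared cells, at 12 h CCN3, AMOTL2, AJUBA and AXL, and at 24 h CCN1, CCN3, AJUBA, AXL and F3. CCN3 was the one gene called at every time, and CCN2, ANKRD1 and CRIM1 were called at none. A gene was called where the adjusted p of edgeR's quasi-likelihood F test, fitted to all 18 libraries with pool as a block, was below 0.05 over all 15189 genes.

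Of the 10 genes 3 were called higher at 3 h, where 1.12% of all genes were, 4 at 12 h, where 6.29% were, and 5 at 24 h, where 9.13% were. None was called lower at any time by edgeR or by DESeq2, where edgeR called 0.342%, 4.55% and 8.07% of all genes lower, and at an unadjusted p below 0.05 the numbers lower were 0, 0 and 1, the last being CRIM1 at 24 h. The median log2 fold change of the 10 was 0.67 at 3 h, 0.79 at 12 h and 0.71 at 24 h, against 0.01, -0.01 and -0.02 for all genes. The 3 sheared values lay entirely above the 3 static values for 6 of the 10 genes at 3 h, against 9.93% of all genes, for 7 at 12 h, against 14.6%, and for 3 at 24 h, against 7.49%. They lay entirely below for 0, 1 and 0 of the 10, against 8.83%, 14.4% and 7.64% of all genes. ANKRD1 was among the genes entirely above at 12 h and 24 h, where it had only 2 to 27 reads a library. Without the replicate block, 2 of the 10 genes were called higher at 3 h, 1 at 12 h and 2 at 24 h. The 10 genes, and the gene lists described below, were chosen with earlier results of these data known. The shares and medians of all genes set beside them are therefore a description and not a test.

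**Figure D1:**
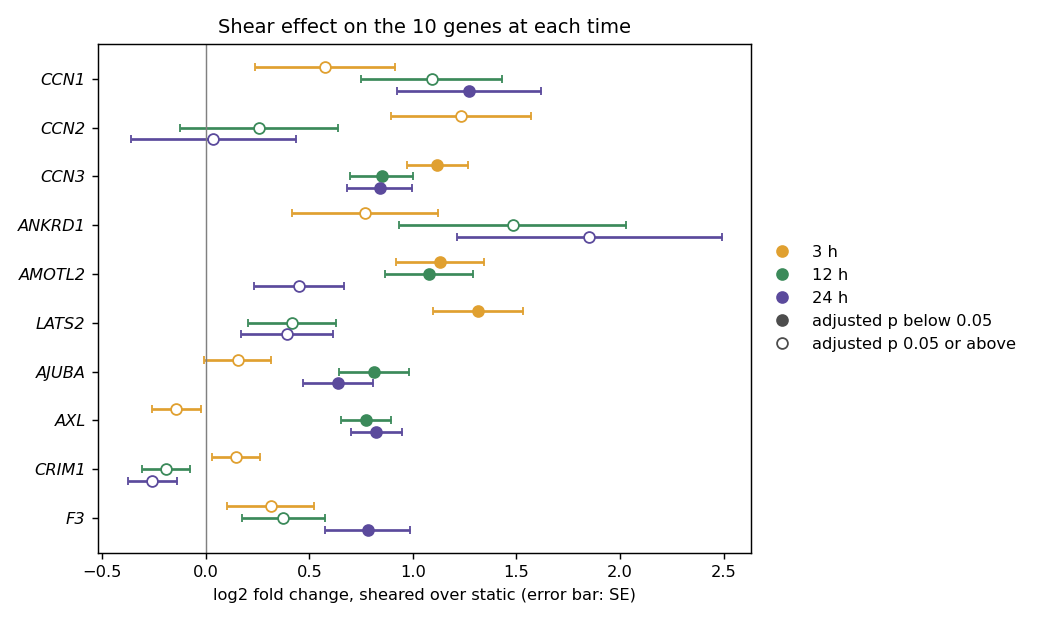
Log2 fold change of sheared over static cells (horizontal axis) for each of the 10 genes at 3, 12 and 24 h, with its standard error; filled points have an adjusted p below 0.05. CCN3 is filled at all 3 times, AXL lies at -0.14 at 3 h and at 0.77 and 0.82 later, and LATS2 is filled at 3 h alone.

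CCN1, a secreted integrin ligand that promotes adhesion and angiogenesis, lies on chromosome 1. It stood at 123, 111 and 156 CPM in sheared cells at 3 h (replicates 1, 2 and 3, the order used throughout), against 98.6, 105 and 61.3 CPM in static cells. At 12 h it stood at 120, 125 and 87.1 CPM in sheared cells, against 51.8, 46.8 and 55.9 CPM in static cells. The groups did not overlap at either time, and the static libraries lay close together at 12 h. At 24 h CCN1 stood at 163, 79.2 and 458 CPM in sheared cells, against 78.9, 54.3 and 99.7 CPM in static cells. Sheared replicate 3 was by far the highest of the 18 libraries, sheared replicate 2 lay among the static values, and each sheared library was above the static one of its pool. The log2 fold change was 0.58 ± 0.34 at 3 h (SE, adjusted p = 0.728), 1.09 ± 0.34 at 12 h (adjusted p = 0.0825) and 1.27 ± 0.35 at 24 h (adjusted p = 0.04). The call at 24 h was lost without 24 h replicate 1 (adjusted p = 0.0871), without 24 h replicate 3 (log2 fold change 0.82, adjusted p = 0.173), without 3 h replicate 1 (adjusted p = 0.054) and without 12 h replicate 1 (adjusted p = 0.0615). At 12 h CCN1 was called in 6 of 14 alternatives, among them DESeq2 (adjusted p = 0.0351).

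CCN2, known as connective tissue growth factor and tied to matrix production, lies on chromosome 6. It stood at 30.3, 25.8 and 46.3 CPM in sheared cells at 3 h, against 18.3, 18 and 7.87 CPM in static cells. The groups did not overlap, and replicate 3 was both the highest sheared and the lowest static library. The log2 fold change was 1.23 ± 0.34 (adjusted p = 0.137), and within pools it was 0.72, 0.52 and 2.54. Of 14 alternatives at 3 h, 1 called CCN2, the edgeR fit with no filter on low counts (adjusted p = 2.22e-09). Levels were far lower at both later times, at 6.75, 4.97 and 3.12 CPM in sheared cells at 12 h, against 4.28, 3.99 and 3.71 CPM in static cells. At 24 h CCN2 stood at 7.95, 2.33 and 4.30 CPM in sheared cells, against 5.45, 3.62 and 4.2 CPM in static cells. Sheared values spread around the static ones at both of these times. The log2 fold changes were 0.26 ± 0.38 (adjusted p = 0.723) at 12 h and 0.04 ± 0.40 (adjusted p = 0.964) at 24 h. An antisense gene, AL133346.1, shares 195 bases or 8.34% of the exon length of CCN2 in GENCODE 29, and the strand setting of the counts is not given in the sources used here, so its reads cannot be told apart from those of CCN2.

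CCN3, a family member described as growth-restraining in several settings and tied to bone metastasis in prostate cancer, lies on chromosome 8. It stood at 70.7, 84 and 63.7 CPM in sheared cells at 3 h, against 32.5, 38.7 and 29.4 CPM in static cells. At 12 h it stood at 45.6, 40.9 and 37.5 CPM in sheared cells, against 25.1, 23.6 and 20.1 CPM in static cells. Sheared and static values were well apart at both times. The 3 h pools gave nearly the same log2 ratio of sheared over static, 1.12, 1.12 and 1.11, although their levels differed. At 24 h CCN3 stood at 20.8, 20.1 and 70.8 CPM in sheared cells, against 15.1, 13.6 and 26.5 CPM in static cells. The groups overlapped, because static replicate 3 was above sheared replicates 1 and 2, but sheared was higher in each pool. CCN3 was higher on the log2 scale by 1.12 ± 0.15 at 3 h (2.17-fold, adjusted p = 0.000281), 0.85 ± 0.15 at 12 h (adjusted p = 0.00219) and 0.84 ± 0.16 at 24 h (adjusted p = 0.00142). These calls rest on the pairing of libraries by pool, since without the replicate block the adjusted p was 0.33, 0.227 and 0.104 at the 3 times. They held in every other alternative run.

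**Figure D2:**
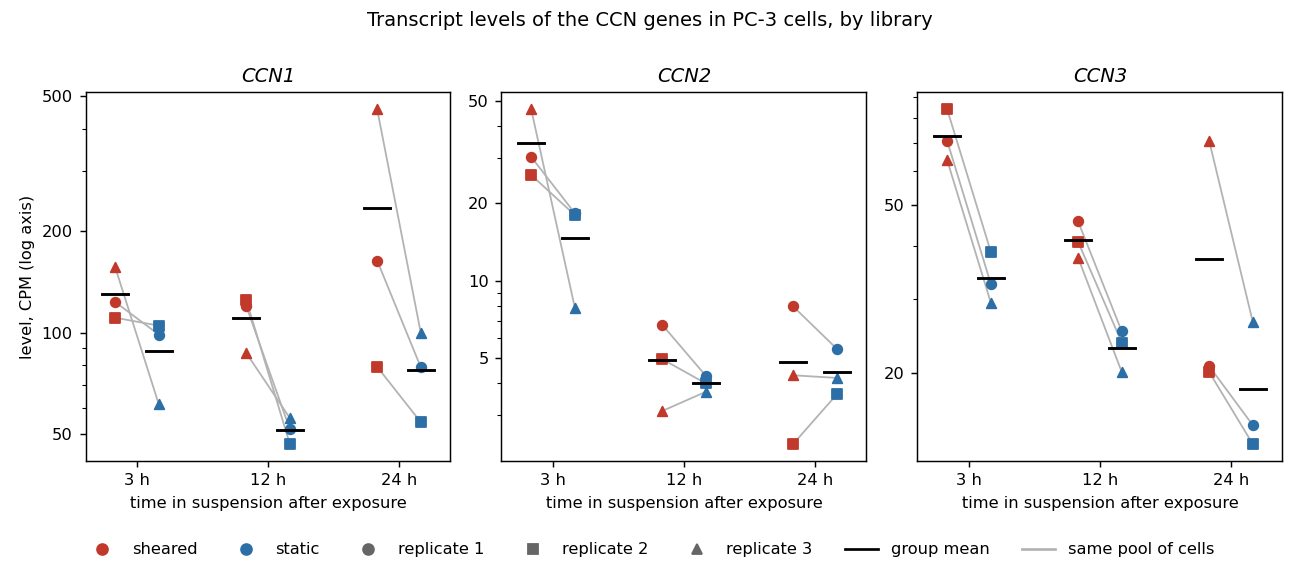
Levels of CCN1, CCN2 and CCN3 in CPM (log axis) in each library, sheared left of static at each time; grey lines join the libraries of 1 pool and black bars are group means. CCN3 is higher in sheared cells in all 9 pools, CCN2 stands highest at 3 h, and the 458 CPM of CCN1 in sheared 24 h replicate 3 stands alone.

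ANKRD1, an ankyrin repeat protein of nucleus and sarcomere, was the least abundant gene of the set after 3 h. It stood at 4.91, 6.01 and 10.1 CPM in sheared cells at 3 h, against 5.27, 4.66 and 2.27 CPM in static cells. The groups overlapped, and replicate 3 had both the highest sheared and the lowest static value. At 12 h only 20, 11 and 27 reads were counted in sheared libraries, against 5, 8 and 7 in static libraries. At 24 h 15, 12 and 10 reads were counted in sheared libraries, against 6, 4 and 2 in static libraries. The groups did not overlap at either of these times. The log2 fold change was 0.77 ± 0.35 at 3 h (adjusted p = 0.507), 1.48 ± 0.55 at 12 h (adjusted p = 0.0927) and 1.85 ± 0.64 at 24 h (adjusted p = 0.0554). At 24 h ANKRD1 was called in 4 of 13 alternatives, among them DESeq2 (adjusted p = 0.0163).

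AMOTL2, an angiomotin family scaffold that retains YAP at junctions, stood at 20.6, 19 and 30.8 CPM in sheared cells at 3 h, against 11.3, 11.8 and 8.46 CPM in static cells. At 12 h it stood at 21.9, 23.4 and 24.4 CPM in sheared cells, against 6.83, 14.6 and 12.9 CPM in static cells. By 24 h AMOTL2 stood at 15.8, 15.8 and 19.5 CPM in sheared cells, against 10.2, 12.2 and 15.4 CPM in static cells. Every sheared value was above every static value at each of the 3 times, with the smallest gap at 24 h. On the log2 scale AMOTL2 differed by 1.13 ± 0.21 at 3 h (adjusted p = 0.00805), 1.08 ± 0.21 at 12 h (adjusted p = 0.00481) and 0.45 ± 0.22 at 24 h (adjusted p = 0.164). The call was lost at 3 h without 3 h replicate 3 (log2 fold change 0.77, adjusted p = 0.185) and at 12 h without 12 h replicate 1 (adjusted p = 0.0677). The pseudogene RPL39P5 shares 3.12% of the exon length of AMOTL2.

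LATS2, the kinase that phosphorylates YAP and TAZ, stood at 36.7, 40 and 64.1 CPM in sheared cells at 3 h, against 19, 16.9 and 19 CPM in static cells. The groups were far apart, and the log2 fold change of 1.32 ± 0.22 was called (2.49-fold, adjusted p = 0.00442). At 12 h LATS2 stood at 37.9, 40.9 and 33.4 CPM in sheared cells, against 27.9, 29.6 and 26.4 CPM in static cells. At 24 h it stood at 43.2, 16.1 and 49.3 CPM in sheared cells, against 32.5, 21.6 and 22.5 CPM in static cells. Sheared cells were still above static cells at 12 h, but at 24 h sheared replicate 2 was the lowest of the 6 libraries. The log2 fold changes were 0.42 ± 0.21 at 12 h (adjusted p = 0.232) and 0.39 ± 0.22 at 24 h (adjusted p = 0.244). Without 3 h replicate 3 the adjusted p at 3 h was 0.0703, and without 24 h replicate 2 LATS2 was called at 24 h (log2 fold change 0.77, adjusted p = 0.0105).

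AJUBA, a LIM-domain scaffold that binds and restrains LATS kinases, stood at 52.6, 46.1 and 55.1 CPM in sheared cells at 3 h, against 48, 52.3 and 38.6 CPM in static cells. The groups overlapped, with a log2 fold change of 0.15 ± 0.16 (adjusted p = 0.881). At 12 h AJUBA stood at 29.7, 40.6 and 53.9 CPM in sheared cells, against 22.7, 21.1 and 25.4 CPM in static cells. After 24 h the values were 32.6, 46.2 and 20.9 CPM in sheared cells, against 20.4, 23.7 and 17.6 CPM in static cells. The groups were apart at 12 h, whereas at 24 h sheared replicate 3 lay inside the static range. The log2 fold changes were 0.81 ± 0.17 at 12 h (adjusted p = 0.00549) and 0.64 ± 0.17 at 24 h (adjusted p = 0.0158). At 12 h the adjusted p was 0.0655 without the replicate block, 0.0874 without 12 h replicate 2 and 0.0518 without 12 h replicate 3. For 24 h it was 0.0957 without the block, 0.0841 in a fit of the 24 h libraries alone, 0.0717 without 24 h replicate 1 and 0.108 without 24 h replicate 2.

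AXL, a receptor tyrosine kinase bound by GAS6 and tied to invasion and drug resistance, stood at 131, 127 and 88 CPM in sheared cells at 3 h, against 146, 151 and 89 CPM in static cells. The groups overlapped and both replicate 3 libraries were low, with a log2 fold change of -0.14 ± 0.12 (adjusted p = 0.835). At 12 h AXL stood at 62.6, 82.3 and 71.3 CPM in sheared cells, against 41, 37.3 and 48.2 CPM in static cells. At 24 h it stood at 59.1, 57.2 and 78.1 CPM in sheared cells, against 33.6, 31.5 and 44.9 CPM in static cells. Sheared and static values did not overlap at either time. AXL was higher by 0.77 ± 0.12 on the log2 scale at 12 h (1.71-fold, adjusted p = 0.000769) and by 0.82 ± 0.12 at 24 h (1.77-fold, adjusted p = 0.000187). At 24 h the 3 pools agreed closely, at 0.81, 0.86 and 0.80. The call at 24 h held in every alternative run, and that at 12 h in all but the fit without the replicate block (adjusted p = 0.0584). The antisense gene AC011510.1 shares 1.30% of the exon length of AXL.

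CRIM1, a membrane protein that binds bone morphogenetic proteins, stood at 146, 146 and 170 CPM in sheared cells at 3 h, against 148, 135 and 134 CPM in static cells. At 12 h it stood at 52.6, 48.6 and 50.3 CPM in sheared cells, against 60.1, 55.6 and 57.4 CPM in static cells. After 24 h CRIM1 stood at 47.7, 34.2 and 50.6 CPM in sheared cells, against 64.4, 44.6 and 49.3 CPM in static cells. The 3 sheared values were all below the static ones at 12 h, where this held for 14.4% of all genes, and the pools gave nearly equal log2 ratios of -0.19, -0.19 and -0.19. The fitted log2 fold change was 0.15 ± 0.11 at 3 h (adjusted p = 0.816), -0.19 ± 0.12 at 12 h (adjusted p = 0.312) and -0.26 ± 0.12 at 24 h (adjusted p = 0.144). Without 24 h replicate 3 it was -0.39 at 24 h, with an adjusted p of 0.0499. An antisense gene, AC007378.1, shares 2.49% of the exon length.

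F3 encodes tissue factor, the receptor for factor VII that starts the clotting cascade on cell surfaces. It stood at 7.29, 8.19 and 7.23 CPM in sheared cells at 3 h, against 6.57, 6.62 and 5.13 CPM in static cells. At 12 h it stood at 20.5, 22.5 and 11.9 CPM in sheared cells, against 15.3, 13.9 and 12 CPM in static cells. The groups were just apart at 3 h and overlapped at 12 h. At 24 h F3 stood at 21.2, 9.66 and 51.2 CPM in sheared cells, against 8.14, 9.23 and 28.2 CPM in static cells. Both replicate 3 libraries were high at that time, and the groups overlapped. The log2 fold change was 0.31 ± 0.21 at 3 h (adjusted p = 0.754), 0.37 ± 0.20 at 12 h (adjusted p = 0.246) and 0.78 ± 0.20 at 24 h (adjusted p = 0.0145). The call at 24 h was lost without the replicate block (adjusted p = 0.335), in a fit of the 24 h libraries alone (adjusted p = 0.091), without 24 h replicate 1 (log2 fold change 0.50, adjusted p = 0.152) and without 24 h replicate 3 (adjusted p = 0.0634).

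**Figure D3:**
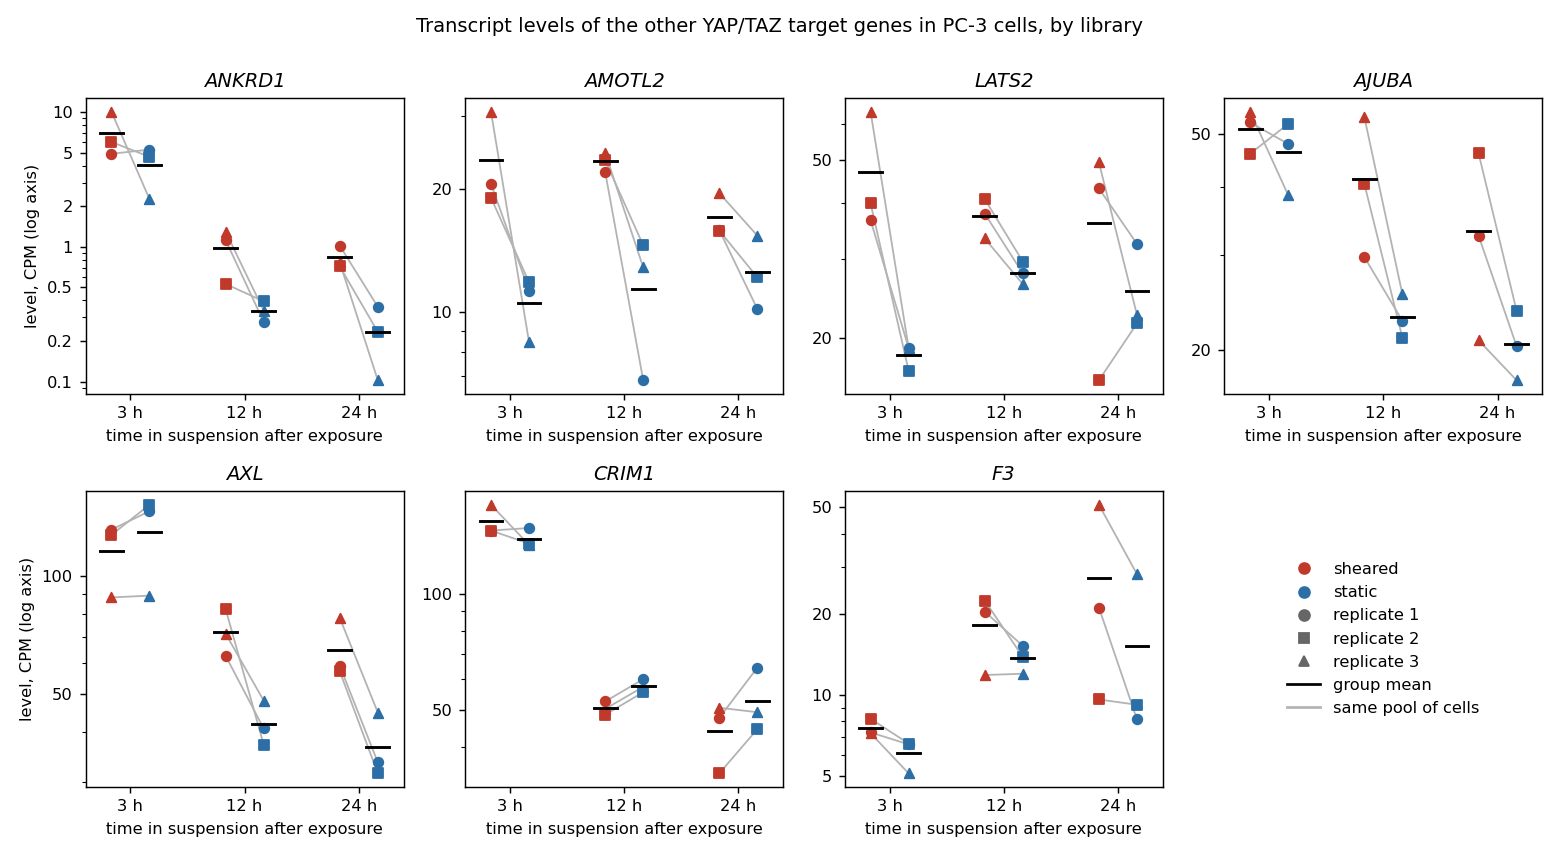
Levels of the 7 other target genes in CPM (log axis) in each library, sheared left of static at each time; grey lines join the libraries of 1 pool and black bars are group means. AMOTL2 is higher in sheared cells in all 9 pools, AXL in the 6 pools of 12 and 24 h only, and CRIM1 shows the opposite slope at 12 h.

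The pool with the widest difference was shared by most genes at 3 h. Of the 10 genes 9 had their largest log2 ratio of sheared over static in 3 h pool 3, the exception being CCN3, whereas 35.5% of all genes tested did. In that pool the ratio was 1.35 for CCN1, 2.54 for CCN2, 2.11 for ANKRD1, 1.85 for AMOTL2 and 1.75 for LATS2. At 12 h the largest ratio fell in pool 1 for 3 genes, in pool 2 for 4 and in pool 3 for 3. At 24 h it fell in pool 3 for 5 of the 10, against 35.9% of all genes, and in that pool the ratio of CCN1 was 2.20 and that of CCN3 1.42. The genes share these pools, so their ratios are not independent of each other.

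Whether the shear effect itself changed with time was tested in the same model. AXL was the only one of the 10 genes whose effect differed, by 0.92 ± 0.17 on the log2 scale at 12 h minus 3 h (adjusted p = 0.00927), where 1.41% of all genes differed, and by 0.97 ± 0.17 at 24 h minus 3 h (adjusted p = 0.00163), where 5.89% did. The effect of LATS2 differed by -0.90 ± 0.30 at 12 h minus 3 h (adjusted p = 0.19) and that of CCN2 by -1.20 ± 0.52 at 24 h minus 3 h (adjusted p = 0.227), neither past the threshold. Between 24 h and 12 h edgeR called none of the 10, none had an unadjusted p below 0.05, and 0.665% of all genes differed. The 3 h libraries carry another batch date in the labels than those of 12 h and 24 h, so the time and the batch cannot be told apart in the first 2 contrasts. Without the replicate block AXL was not called in either (adjusted p = 0.399 and 0.123), and at 12 h minus 3 h it was also lost without 3 h replicate 1 (adjusted p = 0.0656), 3 h replicate 2 (0.104) or 12 h replicate 2 (0.0501).

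Levels moved over time as well as with shear. In static cells CCN1 was higher at 24 h than at 12 h, by 0.58 ± 0.21 on the log2 scale (adjusted p = 0.0493), where 16.9% of the 14804 genes tested were higher and 15.6% lower. That call was lost in 8 of 13 alternatives, among them without static 24 h replicate 3 (log2 fold change 0.35, adjusted p = 0.223). In sheared cells edgeR called none of the 10 genes between 24 h and 12 h, 1 of them (CCN1) had an unadjusted p below 0.05, DESeq2 called none, and 2.55% of the 14672 genes tested were called. There the log2 fold change of CCN1 was 1.07 ± 0.46 (adjusted p = 0.211), and without sheared 24 h replicate 2 it was 1.49 (adjusted p = 0.0191). CCN3 was lower at 24 h than at 12 h without replicate 3 of 24 h, at -1.01 in sheared cells (adjusted p = 0.0127) and at -0.70 in static cells (adjusted p = 0.00728), against -0.16 ± 0.39 and -0.32 ± 0.21 with it. The 3 h levels are given without a test because of their batch date. In static cells CCN2 averaged 14.7 ± 5.93 CPM at 3 h, 3.99 ± 0.285 CPM at 12 h and 4.42 ± 0.933 CPM at 24 h, and CRIM1 averaged 139 ± 7.93, 57.7 ± 2.26 and 52.7 ± 10.3 CPM (SD, n = 3). F3 averaged 6.11 ± 0.848, 13.7 ± 1.63 and 15.2 ± 11.3 CPM, and the last mean rests on static replicate 3. Without that library F3 was lower at 24 h than at 12 h in static cells, at -0.68 (adjusted p = 0.0181), against 0.15 (adjusted p = 0.816) with it.

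Scaled by exon length, CCN1 had the highest mean of the 10 transcripts in each of the 6 groups. In sheared cells at 3 h it averaged 52.9 ± 9.55 CPM per kb, followed by CCN3 at 27.2 ± 3.86, AXL at 22.4 ± 4.58, CRIM1 at 21.6 ± 1.97 and CCN2 at 14.6 ± 4.62. In static cells at 3 h CCN1 averaged 35.9 ± 9.59 CPM per kb, followed by AXL at 25 ± 6.69, CRIM1 at 19.5 ± 1.11, CCN3 at 12.5 ± 1.78 and AJUBA at 7.75 ± 1.17. CCN3 thus stood in the second place in sheared cells and in the fourth place in static cells, but its range overlapped that of AXL in sheared cells, and AXL and CRIM1 overlapped each other in both groups. The range of CCN1 in static cells, 25 to 42.7 CPM per kb, also overlapped that of AXL, 17.3 to 29.4. At the foot of the order in static cells at 3 h F3, ANKRD1 and AMOTL2 overlapped, at 2.12 ± 0.295, 2.05 ± 0.802 and 1.76 ± 0.303 CPM per kb. By 24 h ANKRD1 stood alone at the foot, at 0.422 ± 0.0824 CPM per kb in sheared cells and 0.117 ± 0.0649 CPM per kb in static cells. CRIM1, AXL and CCN3 then overlapped in static cells, at 7.41 ± 1.45, 7.12 ± 1.40 and 6.88 ± 2.63 CPM per kb.

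Among 12414 genes the 3 whose log2 ratios over the 9 pools were most like those of CCN1 were TSC22D2 (Pearson r = 0.985), KMT2B (0.965) and ZNF609 (0.964). For CCN2 they were THSD4 (0.949), BAIAP2 (0.930) and FAM117B (0.920). These are the highest of many values over 9 pools that share their libraries, and they are given as a description. Likeness in pattern did not mean likeness in size: TSC22D2 was higher in sheared cells at 24 h by 0.42 ± 0.14 (adjusted p = 0.0413), and KMT2B was not called, at 0.09 ± 0.15 (adjusted p = 0.724).

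Around the 10 genes, 60 further genes were listed, of which 57 were tested. They are genes of the YAP/TAZ and Hippo pathway, other CCN genes, and partners of AXL and of tissue factor. Of the 57 tested, 2 were higher in sheared cells and 0 lower at 3 h by edgeR. At 3 h 1 was lower at an unadjusted p below 0.05, and 0 were lower by DESeq2. By edgeR 13 were higher and 4 lower at 12 h, and 13 higher and 6 lower at 24 h. Among all genes 1.12% were higher and 0.342% lower at 3 h, 6.29% and 4.55% at 12 h, and 9.13% and 8.07% at 24 h, and the counts lower at 12 h and 24 h are near these shares. The median log2 fold change was 0.01, 0.06 and 0.23 at the 3 times, nearer to that of all genes than the median of the 10. Without the replicate block 0 of the 57 were higher at 3 h, 3 at 12 h and 3 at 24 h, with 1 lower at 12 h and 3 lower at 24 h.

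Of 19 further YAP/TAZ targets tested 2 were higher at 3 h, 6 at 12 h and 6 at 24 h, against 1.12%, 6.29% and 9.13% of all genes, and 2 were lower at 24 h, near the 8.07% of all genes. Their median log2 fold change was -0.065, 0.328 and 0.384 at the 3 times, below that of the 10 genes at each. At 3 h 9 of the 19 had a positive value and 10 a negative one. AREG, an EGF receptor ligand, stood at 384, 435 and 310 CPM in sheared cells at 3 h, against 228, 207 and 181 CPM in static cells. It was higher by 0.87 ± 0.11 at 3 h (adjusted p = 0.000175), 1.16 ± 0.11 at 12 h (adjusted p = 1.11e-05) and 0.95 ± 0.11 at 24 h (adjusted p = 1.59e-05). TGFB2, a transforming growth factor, was higher by 1.05 ± 0.13, 0.91 ± 0.14 and 0.87 ± 0.14 at 3, 12 and 24 h (adjusted p = 0.000166, 0.000507 and 0.000384). NT5E, the ecto-enzyme that makes adenosine, was higher at 12 h (0.87) and 24 h (0.65). FSTL1 was higher at 12 h by 0.37. At 24 h the target FJX1 was lower, at -1.10 ± 0.19 (adjusted p = 0.000584), as was ARHGEF17, at -0.89 ± 0.20 (adjusted p = 0.00465). THBS1, a widely cited target, was not called at any time, with log2 fold changes of -0.31, -0.25 and 0.27; it was named after its values were seen.

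The factors themselves split. YAP1 stood at 159, 162 and 161 CPM in sheared cells at 3 h, against 185, 179 and 165 CPM in static cells, and was not called at any time (log2 fold changes -0.13, 0.06 and 0.04). WWTR1, which encodes TAZ, stood at 203, 194 and 186 CPM in sheared cells at 12 h, against 308, 348 and 273 CPM in static cells. Every sheared value was below every static one, and the log2 fold change was -0.67 ± 0.10 (adjusted p = 0.000633). For TAZ at 24 h it was -0.55 ± 0.10 (adjusted p = 0.00125), and both calls held in every alternative run. TEAD4, a DNA-binding partner, was higher by 0.87 ± 0.17 at 12 h (adjusted p = 0.00372) and 0.81 ± 0.18 at 24 h (adjusted p = 0.00452), and TEAD1 was not called (0.05, 0.14 and 0.25). TEAD2 was lower, at -0.36 at 12 h (adjusted p = 0.0416) and -0.60 ± 0.11 at 24 h (adjusted p = 0.00121). VGLL1, a TEAD cofactor, was higher by 0.64 at 12 h (adjusted p = 0.0404) and by 1.19 ± 0.19 at 24 h (adjusted p = 0.000369). In all, 3 of 9 factors were higher and 2 lower at 12 h and at 24 h. Among all genes 6.29% were higher and 4.55% lower at 12 h, and 9.13% and 8.07% at 24 h. Neither edgeR nor DESeq2 called any factor at 3 h, where none had an unadjusted p below 0.05 either.

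Among 18 Hippo kinases and adaptors none was called at 3 h by edgeR or DESeq2 and none had an unadjusted p below 0.05, 2 were higher at 12 h, and 2 were higher and 1 lower at 24 h, with medians of -0.08, -0.02 and 0.04. These counts are near the shares of all genes, 6.29% higher at 12 h and 9.13% higher and 8.07% lower at 24 h. At 12 h WTIP, an AJUBA relative, was higher by 1.53 ± 0.31 (adjusted p = 0.00514) and NF2, the upstream tumour suppressor merlin, by 0.57 ± 0.13 (adjusted p = 0.0108). At 24 h STK3, the kinase MST2, was higher by 0.49 (adjusted p = 0.0426), AMOTL1 by 0.42 (adjusted p = 0.0271), and TAOK2 was lower, at -0.69 (adjusted p = 0.00761). LATS1, the partner of LATS2, was not called at any time (-0.08, -0.36 and -0.28). The other CCN genes tested, CCN4 and CCN5, were not called by edgeR or DESeq2 at any time, with log2 fold changes of -0.29, -0.49 and -0.38 for CCN4, whose unadjusted p at 12 h was below 0.05, and 0.14, -0.15 and -0.12 for CCN5.

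**Figure D4:**
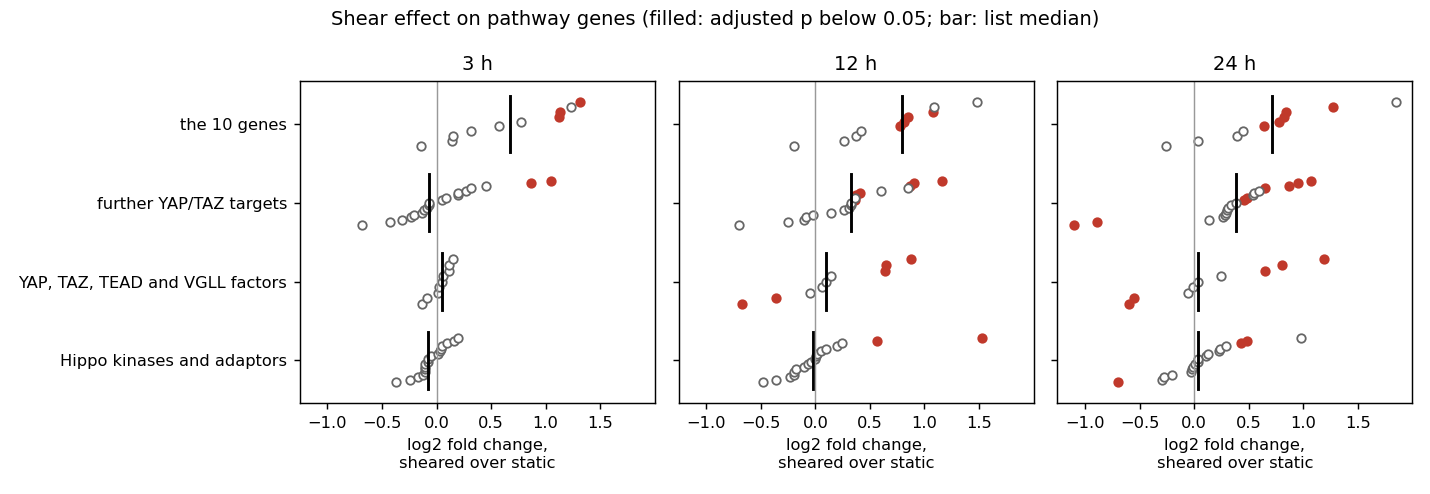
Log2 fold change of sheared over static cells (horizontal axis) for the 10 genes and 3 lists of pathway genes at 3, 12 and 24 h; each point is a gene, filled where the adjusted p is below 0.05, and the bar is the median. The medians of the 10 genes, 0.67, 0.79 and 0.71, lie to the right of those of the Hippo kinases and adaptors, which stay between -0.08 and 0.04. Those of the further YAP/TAZ targets are -0.065, 0.328 and 0.384.

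Partners of AXL and of tissue factor were looked at separately. TYRO3, a receptor of the AXL family, was higher at 12 h by 0.69 ± 0.14 (adjusted p = 0.00448), and the ligand PROS1 was lower, at -0.41 (adjusted p = 0.044). GAS6, the main ligand of AXL, was higher at 24 h by 0.49 ± 0.14 (adjusted p = 0.0252). TFPI, the inhibitor of tissue factor, was not called at any time (-0.26, 0.06 and 0.19). TFPI2, a related protease inhibitor, was higher by 0.65 at 12 h (adjusted p = 0.00368) and by 0.71 at 24 h (adjusted p = 0.000945). F2RL1, the protease-activated receptor PAR2, was lower, at -0.48 at 12 h (adjusted p = 0.0347) and at -0.44 at 24 h (adjusted p = 0.039).

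Of the calls on listed genes named above, those of AREG at 12 and 24 h, TGFB2 at 24 h, WWTR1 at 12 and 24 h, TEAD2 at 24 h and VGLL1 at 24 h held in each of 14 alternatives, and every other call was lost in at least 1. AREG and TGFB2 at 3 h were lost without the replicate block alone (adjusted p = 0.133 and 0.0561), and WTIP and TYRO3 without 12 h replicate 2 alone (adjusted p = 0.11 and 0.0804). The named calls that held least were PROS1, TEAD2 and VGLL1 at 12 h and STK3 at 24 h, in 6 of 14 alternatives. FSTL1 at 12 h and F2RL1 at 24 h held in 7, and F2RL1 at 12 h in 8.

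At 3 h the authors' deposited table held AMOTL2 (adjusted p = 0.000793), LATS2 (0.00107) and CCN2 (log2 fold change 1.27, adjusted p = 0.0303) below 0.05, and CCN3 at 0.0997. At 12 h the authors' deposited table held AMOTL2 (0.00114), AJUBA (0.0219) and AXL (0.0271) below it. At 24 h the authors' deposited table held CCN1 (log2 fold change 1.52, adjusted p = 0.0225), ANKRD1 (1.89, 0.0324) and AXL (0.00852) below it, and CCN3 at 0.0504. The formula behind the authors' deposited table is not given in the sources used here.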

How the data were processed

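Cytosolic RNA was sequenced in 18 libraries. STAR, DESeq2 and the build GRCh38.p13 are named in the submitters' processing notes; no version, read counter, annotation or strand setting is given there. The deposited table holds the authors' raw counts per NCBI Gene ID, without normalization. Per the file headers the authors' deposited tables hold log2 fold changes with standard errors and a p-value and adjusted p-value per gene; their mean signal and test score columns, also deposited, were not used.

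Symbols came from RefSeq for 27745 of 28395 IDs; exon lengths and overlaps came from GENCODE 29 and promoters from RefSeq, both builds of GRCh38. At 3 h the columns were matched to libraries by time and letter, with the treatment letter taken from the naming of the later times. Samples were grouped by treatment and time from the labels. Genes were kept by filterByExpr (minimum count 10, minimum total 15). The legacy robust quasi-likelihood F test of edgeR 4.0.16 (R 4.3.3), on TMM-scaled counts, used 1 model of 18 libraries with a block for each of 9 pools, 3 shear effects and 6 residual degrees of freedom, with Benjamini-Hochberg adjustment over 15189 genes at 0.05. Comparisons of 24 h with 12 h used the 9 libraries of 1 treatment. Each standard error is the absolute log2 fold change divided by √F; log2 CPM used a prior count of 2. DESeq2 1.42.0 served as an alternative. The code was tested on simulated data. With 3 against 3 an exact permutation cannot go below 0.1, so none was run. Depth was 16400487 to 25862360 counts per library, and libraries of 1 group were not copies of each other (chi-square over degrees of freedom 4.44 to 143).

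The pairing comes from the series' design text, which also calls different times independent. Deviations from the group means of same-numbered libraries correlated at 0.0881 to 0.299 for the 3 h pools, -0.148 to 0.245 for 12 h and 0.379 to 0.504 for 24 h. Sheared and static libraries with different numbers gave -0.242 to 0.13 among the 3 h libraries. Among the 12 h libraries their range was -0.385 to 0.233, and among the 24 h libraries -0.296 to -0.0924. The 2 ranges overlapped for 3 h and 12 h. Only for 24 h did every same-numbered value lie above the others, so for the earlier times the pairing rests on the design text.

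The 10 genes, the lists and the tests were chosen with earlier results of these data known. The text names all 10 genes, YAP1, WWTR1, TEAD1, TEAD4, LATS1, NF2, GAS6 and TFPI, up to 4 called genes per list and time by p, and the 3 genes most like CCN1 and CCN2 over the pools among genes with a mean log2 CPM of at least 1; some of those eligible were left out, and some genes are not reported here. Alternatives were another test, another normalization, no filter, no replicate block, the libraries of 1 time alone, and each pool or library left out.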

Additional observations from a re-analysis of the deposited data

Results flagged for a closer look

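Effects of shear that differed between times were found for 5 genes among the 10 and the 57 listed genes tested. The difference was tested in the edgeR model with adjustment over all genes. All 5 differed at 24 h minus 3 h, where 5.89% of all genes did, so their number is near that share. At 12 h minus 3 h 1.41% of all genes differed, and at 24 h minus 12 h 0.665%. AXL, the receptor for GAS6, had a log2 fold change that was 0.915 higher at 12 h than at 3 h (adjusted p = 0.00927) and 0.966 higher at 24 h than at 3 h (adjusted p = 0.00163). VGLL1, a TEAD cofactor, had one 1.126 higher at 24 h than at 3 h (adjusted p = 0.0129), and stood at 22.6, 31.4 and 24 CPM in sheared cells at 24 h, against 9.64, 9.18 and 16.1 CPM in static cells. TEAD2 moved the other way, by -0.615 at 24 h minus 3 h (adjusted p = 0.0237). F2RL1, the receptor PAR2, differed by -0.897 at 12 h minus 3 h (adjusted p = 0.0273) and by -0.856 at 24 h minus 3 h (adjusted p = 0.0133). It stood at 462, 513 and 496 CPM in sheared cells at 3 h, against 373, 356 and 373 CPM in static cells, and at 198, 206 and 232 CPM in sheared cells at 12 h, against 293, 330 and 266 CPM in static cells. FJX1, a four-jointed homologue and YAP target, differed by -1.43 at 24 h minus 12 h (adjusted p = 0.0142) and by -1.379 at 24 h minus 3 h (adjusted p = 0.0021). It stood at 13.9, 21.6 and 4.37 CPM in sheared cells at 24 h, against 25, 43 and 13.5 CPM in static cells. The 3 h libraries have their own batch date, which cannot be told apart from time.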

How the results depend on the processing

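Without the replicate block, 1 of the 10 genes was called higher at 12 h (4 with it) and 2 at 24 h (5 with it); listed genes numbered 0, 3 and 3 higher at 3, 12 and 24 h, and 1 and 3 lower at 12 and 24 h; all genes numbered 58, 183 and 593 higher and 6, 137 and 320 lower, against 170, 956 and 1387 and 52, 691 and 1225; and 0 of the 10 had a different shear effect at 12 h or 24 h minus 3 h. With no filter on low counts, 5, 7 and 6 of the 10 were higher, 2 listed genes were lower at 12 h, 331 of all genes were higher and 119 lower at 3 h, 3 and 4 of the 10 differed in shear effect at 12 h and 24 h minus 3 h, and 0 were higher at 24 h than 12 h in static cells, as with RLE normalization (0). With the libraries of 1 time alone, 3 of the 10 were higher at 24 h, listed genes were 6 higher and 1 lower at 3 h and 5 higher and 3 lower at 24 h, and all genes 816 higher and 650 lower at 3 h and 481 and 280 at 24 h. DESeq2 called 79 of all genes lower at 3 h. The cause was not tested.

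Leaving out each pool or library in turn gave these ranges. Of the 10 genes, 1 to 3 were higher at 3 h (1 without 3 h replicate 3), 2 to 6 at 24 h (2 without 24 h replicate 1, 3 without 24 h replicate 3) and 0 to 1 lower at 24 h; 0 to 2 differed in shear effect at 12 h minus 3 h and 1 to 3 at 24 h minus 3 h; between 24 h and 12 h, 0 to 1 were higher and 0 to 1 lower in sheared cells, and 0 to 1 higher and 0 to 2 lower in static cells. Listed genes were 6 to 13 higher and 1 to 4 lower at 12 h and 6 to 17 higher at 24 h. All genes were 70 to 304 higher and 9 to 142 lower at 3 h, 196 to 1553 higher and 165 to 1138 lower at 12 h, and 609 to 1396 lower at 24 h. Log2 fold changes that changed sign, none of them called with all libraries, were those of AJUBA at 3 h (-0.024 to 0.317) and CCN2 at 24 h (-0.280 to 0.310), and, between 24 h and 12 h, in sheared cells CCN2 (-0.605 to 0.323), CCN3 (-1.011 to 0.148), ANKRD1 (-0.544 to 0.014), LATS2 (-0.337 to 0.308) and F3 (-0.248 to 0.982), and in static cells CCN2 (-0.037 to 0.251), AMOTL2 (-0.134 to 0.338) and F3 (-0.680 to 0.446). Depth limits ANKRD1 most, with 2 to 27 reads a library after 3 h.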
